A study of Mus musculus with 12 samples.

Results

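A set of 7 genes of the intracellular lipid-binding protein family was followed in mouse trigeminal nerve: Pmp2, Fabp3, Fabp4, Fabp5, Fabp7, Crabp1 and Crabp2, 7 of the 47480 gene symbols in the deposited table. Pmp2 was selected on its measured count, which was far higher in tumours than in normal nerve. That difference is therefore given here as a description, without a test. Its 6 paralogs were included by gene family, though with earlier results of these data known, and they give the contrast. They are not the whole family, and 8 other members are described further on. There were 6 samples of normal nerve, genotype Nf1 flox/flox PostnCre-, and 6 of plexiform neurofibroma, genotype Nf1 flox/flox PostnCre+. Both groups therefore carried floxed Nf1 alleles and differed in the Cre transgene, so genotype and tumour state coincide. In mice of this kind Cre is driven by a fragment of the periostin promoter that is active in the Schwann lineage, and the labels do not say which cells of these samples carried the deletion. The labels give no age, sex or batch and do not say that the samples came from separate animals, so p-values measure only the spread between these samples, which may be technical.

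Loss of neurofibromin, the RAS brake encoded by Nf1, in cells of the Schwann lineage gives rise to plexiform neurofibroma, a benign tumour in which these cells mix with fibroblasts, immune cells and axons. Fatty acid binding proteins are small cytosolic barrel-shaped proteins that carry long-chain fatty acids to membranes, to oxidation, to storage droplets or to nuclear receptors. Pmp2, also called P2 or Fabp8, is the member found in peripheral myelin, where it binds fatty acids and stacks membranes, and mutations of the human gene cause a demyelinating neuropathy. Crabp1 and Crabp2, of the same fold, carry retinoic acid: Crabp2 hands it to retinoic acid receptors in the nucleus, whereas Crabp1 holds it in the cytosol.

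Pmp2 (ENSMUSG00000052468.7) lies on chromosome 3, 10179851 to 10183929, minus strand (GRCm38), and its neighbours include Fabp5 (10012548 to 10016607, plus strand) and Fabp4 (10204088 to 10208576, minus strand). Crabp2 lies on the same chromosome at 87948666 to 87953376, Fabp3 on chromosome 4 at 130308595 to 130315463, Fabp7 on chromosome 10 at 57784881 to 57788450 and Crabp1 on chromosome 9 at 54764748 to 54773110. Each gene has 4 exons, and values count reads over the whole gene. Over the coding sequence, Pmp2 shared 72% of aligned bases with Fabp4, 66.8% with Fabp3, 62.5% with Fabp7, 61.5% with Fabp5, 54.4% with Crabp2 and 53.5% with Crabp1, while Crabp1 and Crabp2 shared 70.8%. A search of annotated transcripts, pseudogenes not included, found a single match to another gene over at least 50% of a member's length at 90% identity or more. This gene model, Gm37389, contains 1226 bases of the Pmp2 transcript and had a count of 0 in every library. Fabp3 and Fabp5 held fractional estimates in 11 and 12 libraries (farther than 0.01 from a whole number), so their reads were shared in part with other sequences, and the pseudogene Fabp3-ps1 had estimates of up to 72.4 counts. Fabp3 also overlaps Zcchc17 and Gm10570 on the opposite strand, and its value is uncertain to that extent because the strand setting of the counting is not given in the sources used here.

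Promoter sequences of 250 bases before and 50 bases after the gene start were matched for 3 of the 7 genes, Fabp3, Fabp7 and Crabp1, in a RefSeq table on GRCm38.p6. The starts are those of that source, and for Fabp3 and Fabp7 they differ from the starts given above. Those of Crabp1, the paralog whose change passed the test, and of Fabp7, the most abundant paralog, are shown 5′ to 3′ on the strand of the gene. The windows are chr9:54764498-54764797 (plus strand) for Crabp1 and chr10:57784673-57784972 (plus strand) for Fabp7. Capitals mark GGGCGG, the GC box, in Crabp1 and AGGTCA, a core recognised by nuclear receptors, in Fabp7, each on either strand.
Crabp1: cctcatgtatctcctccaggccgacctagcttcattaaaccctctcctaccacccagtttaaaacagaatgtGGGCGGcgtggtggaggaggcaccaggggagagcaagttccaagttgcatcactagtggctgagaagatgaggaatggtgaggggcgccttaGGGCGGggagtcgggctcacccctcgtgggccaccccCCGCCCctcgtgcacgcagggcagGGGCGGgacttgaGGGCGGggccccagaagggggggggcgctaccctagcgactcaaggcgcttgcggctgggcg
Fabp7: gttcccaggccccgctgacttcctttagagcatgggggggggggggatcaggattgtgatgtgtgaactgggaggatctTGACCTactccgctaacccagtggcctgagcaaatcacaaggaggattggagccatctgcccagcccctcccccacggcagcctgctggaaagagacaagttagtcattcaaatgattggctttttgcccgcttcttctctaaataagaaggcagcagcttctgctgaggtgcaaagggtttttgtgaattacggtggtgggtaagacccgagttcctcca
The Crabp1 window held 5 matches of GGGCGG and had a GC content of 65%, and 35.7% of the 32851 promoters in the table held at least 1 match. The Fabp7 window held 1 match of AGGTCA, on the minus strand, and had a GC content of 54%, against 16.3% of promoters with a match. TATAAA, present in 13.6% of promoters, and ACAAAG, a SOX core present in 18.7%, were also searched on both strands and were found in neither window, and the Fabp3 window held none of the 4 motifs. These are matches of letters and not binding sites.

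Libraries held between 14159973 and 19989325 counts, and 17236 genes were tested. A gene is called here at an adjusted p under 0.05 in edgeR's quasi-likelihood test, which called 18.7% of tested genes, 10.0% higher in tumours and 8.63% lower. Nf1 was at 131 CPM ± 35.8 in normal nerve and 83.8 CPM ± 8.13 in tumours (SD, n = 6 each, edgeR adjusted p = 0.0179), with overlapping groups. CPM values are counts scaled by TMM to a common library size. In all, 3 libraries stood apart in marker genes. Normal nerve replicate 2 had the lowest summed CPM of the myelin, Schwann cell, macrophage and fibroblast lists. Its sensory neuron sum was the highest of all libraries, 18027 CPM, and that of normal nerve replicate 6 was the lowest, 9586 CPM. Normal nerve replicate 6 had the highest sum of oligodendrocyte and CNS neuron markers, 1531 CPM against 193 to 502 in the other normal libraries. Plexiform neurofibroma replicate 1 held 1027 CPM of 12 adipocyte markers against 26.0 to 46.6 CPM in the other 11 libraries. It also held 2056 CPM of 12 skeletal muscle markers, as against 4.47 to 509 elsewhere. Values of the 7 genes that rest on these libraries are given with and without them. Xist was detected in 3 libraries of each group.

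Pmp2, the P2 protein of myelin, was low in normal nerve and abundant in tumours. The 6 normal libraries held 10.9, 0.712, 11.7, 3.89, 8.13 and 6.31 CPM, from 14 to 215 counts. The 6 tumour libraries held 216, 205, 194, 253, 46.7 and 173 CPM, from 802 to 4568 counts. The groups did not overlap: the lowest tumour library, replicate 5, stood 3.99 times above the highest normal library, replicate 3. Means were 6.94 CPM ± 4.20 (SD, n = 6) and 181 CPM ± 71.1 (SD, n = 6), a 26.1-fold difference. The fitted log2 fold change was 4.71 (SE 0.56), rank 6 among the 17236 tested genes and rank 5 among the 12553 with a mean of at least 5 CPM. Without tumour replicate 5 the tumour mean was 208 CPM ± 29.6 (SD, n = 5). Leaving out any 1 library moved the log2 fold change between 4.47 and 4.93, and without the 3 libraries that stood apart it was 4.32 (SE 0.56).

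**Figure D1:**
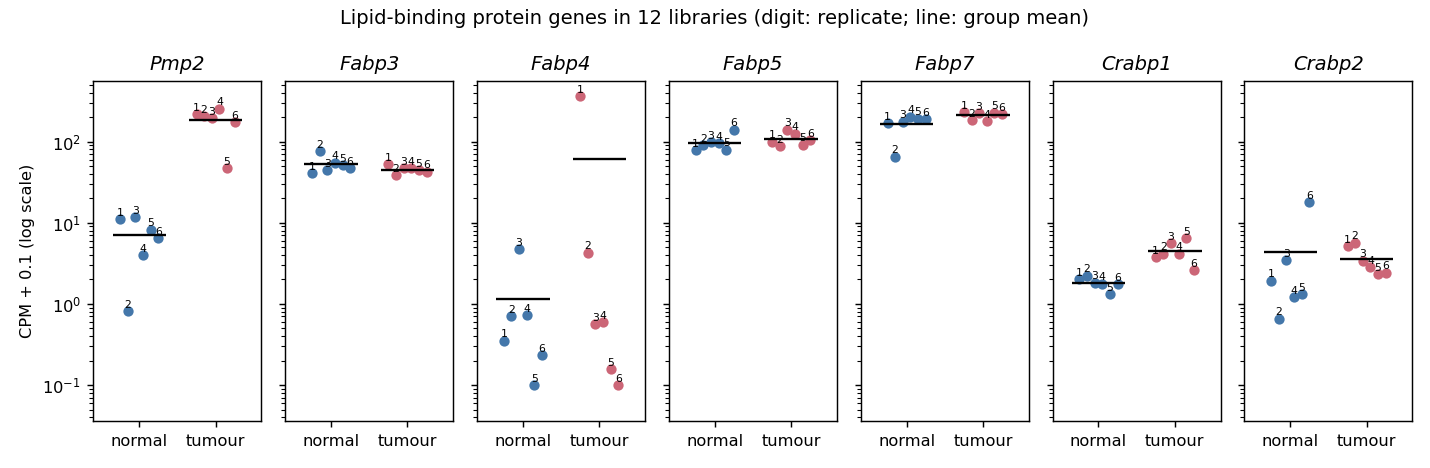
CPM plus 0.1, on a log axis, of the 7 genes in each library, normal nerve in blue and plexiform neurofibroma in red; digits are replicate numbers and lines are group means. Pmp2 and Crabp1 do not overlap between groups, Fabp4 stands high in tumour replicate 1 alone, and Crabp2 in normal replicate 6 alone.

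Some myelin and Schwann lineage genes were themselves higher in tumours, so Pmp2 was also set against single genes of these lists. Pmp22, a structural membrane protein of compact myelin, rose 2.38-fold (edgeR adjusted p = 0.00576). S100b, a calcium-binding protein of Schwann cells, rose 1.74-fold (edgeR adjusted p = 0.00115). Pmp2 stood at 4.21 ± 2.70 counts per 1000 Pmp22 counts in normal nerve and 46.3 ± 17.5 in tumours (SD, n = 6 each). Per 1000 S100b counts it stood at 7.98 ± 4.87 and 117 ± 42.9, a 14.6-fold difference in the ratio. The ratio to Pmp22 ran from 0.817 to 8.75 in normal libraries and from 15.4 to 60.9 in tumours, and the ratio to S100b from 0.794 to 14.6 and from 34.9 to 155. For Pmp22, Mbp, S100b, Sox10 and Fabp7 as the denominator, the ratios of the 2 groups did not overlap. The fold of group means was lowest of these 5 against Pmp22 and highest against Fabp7, 22.5. These ratios use the contrast that chose Pmp2 and are a description. In tissue RNA, more cells of a type and more RNA per cell cannot be told apart.

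**Figure D2:**
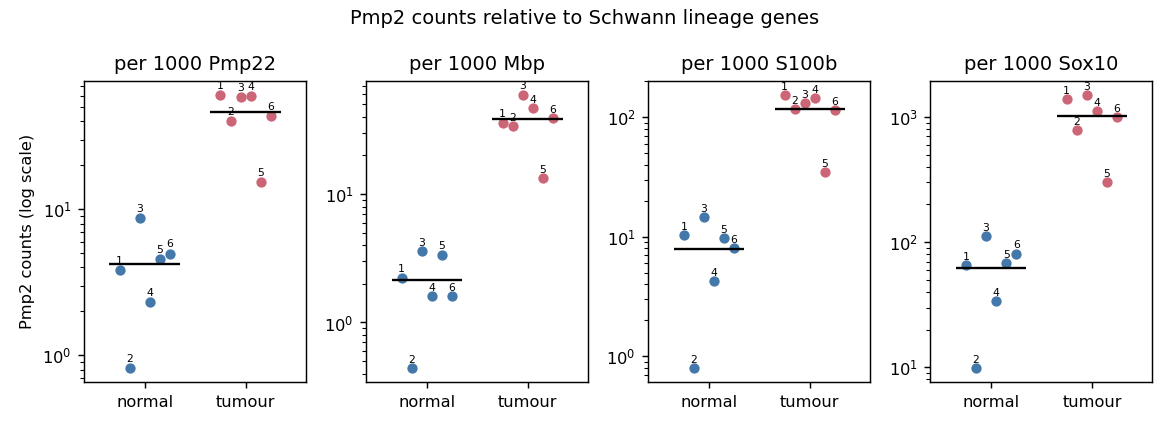
Pmp2 counts per 1000 counts of Pmp22, Mbp, S100b or Sox10 in each library, on log axes, normal nerve in blue and plexiform neurofibroma in red; lines are group means and digits are replicates. Every tumour library stands above every normal one in all 4 ratios, and normal replicate 2 and tumour replicate 5 are the lowest of their groups.

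Of the 7 genes, 6 passed the filter on low counts. Pmp2 was chosen on this contrast, so its call is not set against other genes. Of the tested paralogs Crabp1 was called and the other 4 were not, while 18.7% of all tested genes were called. The groups of Crabp1 did not overlap, as for 7.39% of tested genes in either direction. Those of Pmp2 did not overlap either, but Pmp2 was chosen on this contrast. Fabp7, Fabp5 and Fabp3 were abundant in both groups. On a scale of CPM per kilobase of transcript, which allows genes to be compared, the level of Fabp7 averaged 205 ± 62.7 in normal nerve and 260 ± 27.5 in tumours, Fabp5 97.6 ± 22.8 and 109 ± 20.5, and Fabp3 63.6 ± 15.4 and 54.7 ± 5.68 (SD, n = 6 each). Pmp2 stood at 4.93 ± 2.98 and 129 ± 50.5 on that scale, so it moved from place 4 to place 2 of the 7 in mean level. In normal nerve its 4.93 lay next to the 4.63 ± 7.17 of Crabp2, a gap smaller than either spread. In tumours its 129 lay next to the 109 of Fabp5, within the spread of Pmp2. Pmp2 made up between 0.188% and 2.23% of the summed CPM per kilobase of the 7 genes in normal libraries and between 7.04% and 30.2% in tumours.

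Fabp7, the brain lipid-binding protein of radial glia, satellite glia and early Schwann lineage cells, had the highest mean level of the 7 in both groups. The normal libraries held 167, 65.0, 175, 203, 191 and 187 CPM and the tumours 228, 184, 223, 179, 226 and 215 CPM. Normal replicate 2 was far below the rest, and of the remaining 5 the highest 3 lay within the tumour range. Fabp7 had a log2 fold change of 0.35 (SE 0.21, edgeR adjusted p = 0.262). Without normal replicate 2 it was 0.19, and the normal mean was 185 CPM ± 14.1 (SD, n = 5) against 209 CPM ± 22.1 in tumours (SD, n = 6).

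Fabp5, the epidermal member, which is also made by glia, macrophages and regenerating nerve, did not pass the test. Normal libraries held 77.9, 89.4, 98.2, 94.6, 78.9 and 139 CPM and tumours 99.9, 87.2, 139, 125, 91.6 and 104 CPM. The groups overlapped widely, with normal replicate 6 at the top of its group. The fit gave a log2 fold change of 0.16 (SE 0.15, edgeR adjusted p = 0.474). Without normal replicate 6 the value was 0.30 (edgeR adjusted p = 0.082), with a normal mean of 87.8 CPM ± 9.15 (SD, n = 5).

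Fabp3, the heart and muscle member, which supplies fatty acids for oxidation, did not pass either. The normal libraries held 40.6, 76.2, 44.4, 54.6, 51.4 and 46.7 CPM, and the tumour libraries 52.0, 38.3, 46.9, 46.9, 44.1 and 42.2 CPM. Normal replicate 2 was the highest of the 12, and the other libraries overlapped. In the fit Fabp3 had a log2 fold change of -0.22 (SE 0.14, edgeR adjusted p = 0.272), and of -0.07 without that library. Fabp3 thus stood highest in the library in which Pmp2 and Fabp7 stood lowest. That library also had the highest sum of sensory neuron markers of the 12, and the part of neurons in these values was not tested.

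**Figure D3:**
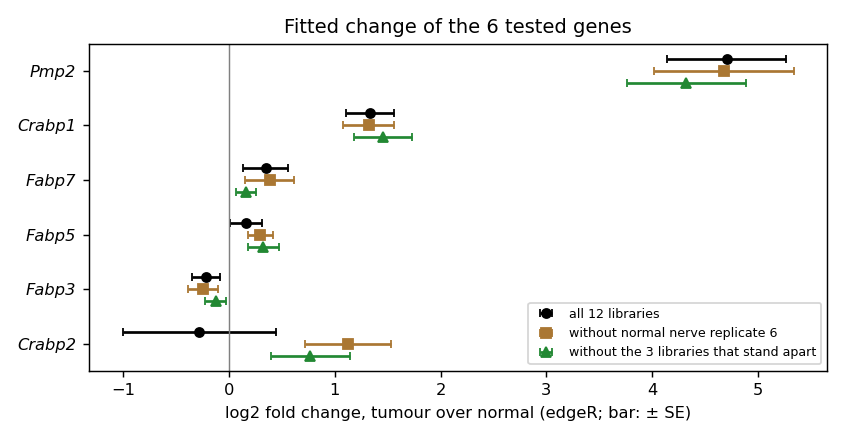
Log2 fold change, plexiform neurofibroma over normal nerve, with its SE, of the 6 tested genes with all 12 libraries, without normal nerve replicate 6 and without the 3 libraries that stand apart. Pmp2 lies at 4.71 with all libraries, Crabp1 at 1.33 and Fabp7, Fabp5 and Fabp3 between -0.22 and 0.35, while Crabp2 changes sign.

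Fabp4, the adipocyte member, was high in a single tumour library. Normal libraries held 0.254, 0.610, 4.61, 0.626, 0 and 0.133 CPM and tumour libraries 358, 4.18, 0.458, 0.499, 0.0582 and 0 CPM. Tumour replicate 1, at 6996 counts, stood far above the other 11 libraries, whose median was 0.458 CPM and whose highest was 4.61 CPM. Fabp4 did not pass the filter and has no test in the fit. Fitted with no filter, it had a log2 fold change of 5.84 (SE 2.25, edgeR adjusted p = 0.162 over 32206 genes). Without replicate 1 the tumour mean was 1.04 CPM ± 1.77 (SD, n = 5) against 1.04 CPM ± 1.77 in normal nerve (SD, n = 6). In that library Fabp4 made up 39.5% of the summed CPM per kilobase of the 7 genes.

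Adipocyte markers moved with Fabp4. In tumour replicate 1, Adipoq, the hormone adiponectin, was at 74.3 CPM, Cfd, the protease adipsin, at 267 CPM and Plin1, which coats the fat droplet, at 34.4 CPM. Adipoq was at no more than 0.345 CPM in any other library, Plin1 at no more than 0.573 CPM and Cfd at no more than 1.37 CPM. Of the 12 adipocyte markers 5 passed the filter and none was called. The smallest p belonged to Car3 (edgeR adjusted p = 0.0731), which stood at 427 CPM in tumour replicate 1. Capillary endothelial markers, the other usual source of Fabp4, summed to 378 CPM in tumour replicate 1 and to between 219 and 360 CPM in the other libraries. These sums include Cd36, also a gene of fatty acid uptake, which reached 80.3 CPM among tumours. Its log2 fold change was 2.00 with all libraries and 0.62 without tumour replicate 1. In that library skeletal muscle markers also stood apart, with Ckm, muscle creatine kinase, at 202 CPM. Fabp3, abundant in muscle, was at 52.0 CPM there, the highest of the 6 tumour libraries. Normal replicate 3 held 509 CPM of muscle markers, the most of its group. Its Fabp3 was at 44.4 CPM, with normal libraries at 40.6 to 76.2 CPM. The part of muscle in the values of Fabp3 was not tested. The part of adipocytes in the value of Fabp4 was not tested.

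**Figure D4:**
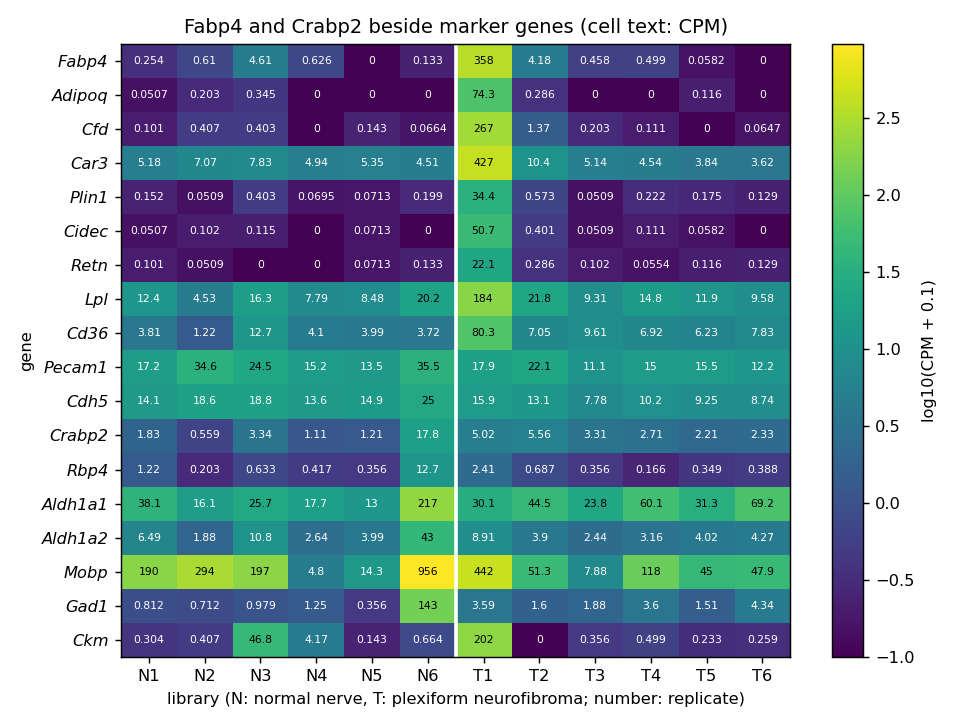
CPM of Fabp4, Crabp2 and marker genes (rows) in the 6 normal (N) and 6 tumour (T) libraries (columns); colour is log10 of CPM plus 0.1. Fabp4, Adipoq, Cfd, Car3, Plin1, Cidec and Retn are highest in tumour replicate 1, and Crabp2, Rbp4, Aldh1a1, Aldh1a2, Mobp and Gad1 in normal replicate 6.

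Crabp1, the cytosolic retinoic acid carrier, was the paralog that rose. The normal libraries held 1.93, 2.14, 1.73, 1.67, 1.21 and 1.66 CPM, from 17 to 42 counts, and the tumours 3.64, 4.07, 5.54, 4.04, 6.34 and 2.52 CPM, from 39 to 109 counts. The groups did not overlap, which held with the tumours higher for 4.40% of tested genes. Means were 1.72 CPM ± 0.310 and 4.36 CPM ± 1.37 (SD, n = 6 each), a 2.53-fold rise (log2 fold change 1.33, SE 0.22, edgeR adjusted p = 0.00322). It was called in all 12 fits that left out 1 library, with log2 fold changes from 1.20 to 1.45, and without the 3 libraries that stood apart (1.46, SE 0.27, edgeR adjusted p = 0.00445). Tumour replicate 5, lowest of its group in Pmp2, was the highest in Crabp1. At these counts Crabp1 remained low, at 5.44 CPM per kilobase ± 1.71 in tumours.

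Crabp2, the nuclear carrier, had no settled direction. The normal libraries held 1.83, 0.559, 3.34, 1.11, 1.21 and 17.8 CPM and the tumours 5.02, 5.56, 3.31, 2.71, 2.21 and 2.33 CPM. A single normal library, replicate 6, was the highest of all, and of the other normal libraries replicate 3 alone reached the tumour range. The fitted value was -0.28 (log2 fold change, SE 0.73, edgeR adjusted p = 0.811). Without normal replicate 6 it was 1.13 (edgeR adjusted p = 0.0546), with means of 1.61 CPM ± 1.07 in normal nerve (SD, n = 5) and 3.52 CPM ± 1.43 in tumours (SD, n = 6). In normal replicate 6, Aldh1a2, which makes retinoic acid, was at 43.0 CPM. Of the CNS markers, Gad1, which makes the neurotransmitter GABA, stood at 143 CPM there and at no more than 4.34 CPM in the other libraries. Slc17a7 of the same list did not share this: its log2 fold change was -0.56 with all libraries and -0.71 without normal replicate 6. The list summed to 1531 CPM in normal replicate 6 and to 654 CPM in tumour replicate 1, where Crabp2 was at 5.02 CPM. The part of CNS tissue in the value of Crabp2 was not tested.

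Of the other 8 intracellular lipid-binding proteins, most were near the floor. Fabp1, the liver form, and Fabp9, the testis form, had no count in any library. Fabp2 and Fabp6, the intestinal and ileal forms, and Fabp12 reached at most 0.286, 0.0713 and 0.0576 CPM. The intestinal retinol carrier Rbp2 stayed at or under 0.570 CPM. Rbp7, an endothelial and adipocyte carrier, was at 0.754 CPM in normal nerve and 0.965 CPM in tumours (log2 fold change 0.38, SE 0.59, edgeR adjusted p = 0.68). None of the 2 tested was called.

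Of the other tested genes within 250 kb of Pmp2, Chmp4c and Snx16 rose and the rest did not pass the test. Calls higher made up 10.0% of all tested genes and calls lower 8.63%. Groups did not overlap, with the tumours higher, for 4.40% of tested genes. Fabp5 and Fabp4, which was high in 1 tumour library, are described above, and Fabp9, Gm37389 and Gm38303 had no count. Fabp12 and Slc10a5, a member of the bile acid transporter family, were near 0. Impa1, an inositol phosphatase, was at 81.0 and 82.8 CPM (log2 fold change 0.03, SE 0.08, edgeR adjusted p = 0.817) and Zfand1 at 18.4 and 18.7 CPM (0.03, SE 0.10, edgeR adjusted p = 0.878). The log2 fold change of Gm9833 was -0.46 (SE 0.20, edgeR adjusted p = 0.117). Chmp4c, a subunit of the membrane-cutting ESCRT machinery, rose from 4.89 CPM ± 0.760 to 11.8 CPM ± 3.56 (SD, n = 6 each) with no overlap between groups (log2 fold change 1.27, SE 0.20, edgeR adjusted p = 0.00247). Snx16, a sorting nexin of endosomes, rose from 40.3 CPM ± 4.27 to 50.7 CPM ± 3.97 (0.33, SE 0.08, edgeR adjusted p = 0.014). The ranges of Chmp4c (10366907 to 10428856, plus strand) and Snx16 (10417817 to 10440102, minus strand) overlap, so their reads may not be fully separate.

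**Figure D5:**
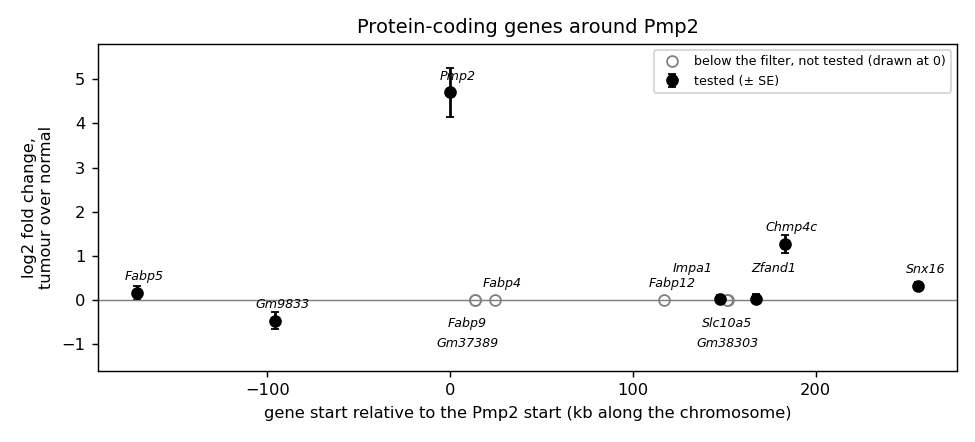
Log2 fold change, plexiform neurofibroma over normal nerve, with its SE, of protein-coding genes by the distance in kb of their start from the Pmp2 start; open points are genes too low to test. Pmp2 lies at 4.71, Chmp4c at 1.27 and every other tested gene between -0.46 and 0.33.

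The 5 genes whose profile over the 12 libraries was most like that of Pmp2 were sought among 12552 genes of at least 5 CPM on average, by the root mean square distance of log2 CPM centred on each gene's mean. They were Klk8, a secreted serine protease, at a distance of 1.08, the eosinophil chemokine Ccl11 at 1.12, the acyl-CoA thioesterase Them5 at 1.13, the homeobox factor Meox1 at 1.34 and the matrix proteoglycan Lum at 1.37. Klk8 went from 0.990 CPM ± 0.642 to 11.8 CPM ± 5.16 and Them5 from 4.90 CPM ± 3.71 to 41.5 CPM ± 8.18 (SD, n = 6 each). All 5 had their lowest value in normal replicate 2, as Pmp2 did. Among the family, Crabp1 was nearest at 2.24 and Fabp4 farthest at 3.46. Since the measure includes the group difference, it is a description.

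Genes that make and sense retinoic acid were followed beside the Crabp genes. Of 15 genes of retinoid synthesis and breakdown, 10 were tested, 3 rose and none fell, with a median log2 fold change of 0.25 against -0.02 over all tested genes. Among all tested genes, 10.0% were called higher and 8.63% lower. Adh1, a retinol-oxidising alcohol dehydrogenase, rose 3.11-fold from 2.70 to 8.39 CPM (edgeR adjusted p = 0.00633). Aldh1a3, which makes retinoic acid, rose 1.68-fold from 10.0 to 16.9 CPM (edgeR adjusted p = 0.00718). Rdh5, a retinol dehydrogenase, rose 1.61-fold from 11.3 to 18.1 CPM (edgeR adjusted p = 0.0136). Aldh1a1 and Aldh1a2 did not pass and were highest in normal replicate 6. Of 9 nuclear receptors for retinoids and fatty acids, 2 rose and none fell, with a median log2 fold change of 0.27: Rxrg, a retinoid X receptor, 2.12-fold from 12.9 to 27.3 CPM (edgeR adjusted p = 0.00299), and Rara, a retinoic acid receptor, 1.71-fold from 7.49 to 12.8 CPM (edgeR adjusted p = 0.00872). Pparg, the receptor that drives fat cell formation, was at 1.57 and 3.05 CPM (edgeR adjusted p = 0.353), with its highest value, 12.6 CPM, in the tumour library rich in adipocyte markers. These 5 called genes stayed called in every fit that left out 1 library and without the 3 that stood apart.

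Genes that handle the fatty acid ligands of the Fabp proteins were followed next. Of 16 genes of fatty acid uptake and activation, 13 were tested, 1 rose and 1 fell, shares no larger than the 10.0% higher and 8.63% lower among all tested genes, with a median log2 fold change of 0.05. Without normal replicate 1 or 6, 2 were called higher. Slc27a6, a fatty acid transporter, rose 2.81-fold from 0.480 to 1.35 CPM (edgeR adjusted p = 0.0103), and Acsl6, an acyl-CoA synthetase of neural tissue, fell from 197 to 130 CPM, 0.659 of the normal level (edgeR adjusted p = 0.0035). Of 15 genes of fatty acid oxidation, all tested, Hadh, a dehydrogenase of short-chain acyl-CoA oxidation, rose 1.39-fold (edgeR adjusted p = 0.00952), and none fell, with a median log2 fold change of 0.13; this share is also below that of all tested genes, and 2 were called higher without normal replicate 4 or 5. Of 16 genes of lipid storage and lipolysis, 12 were tested, 3 rose and none fell, with a median log2 fold change of 0.43. They were the droplet coats Plin2 (1.45-fold, edgeR adjusted p = 0.0098) and Plin3 (1.80-fold, edgeR adjusted p = 0.0153) and the lipase inhibitor G0s2 (1.37-fold, edgeR adjusted p = 0.0176). Without the 3 libraries that stood apart G0s2 was not called (edgeR adjusted p = 0.0597). The fat cell genes Cidec and Plin1 were too low to test outside tumour replicate 1, where Cidec was at 50.7 CPM.

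Markers of the cells that could carry these genes moved as well, and their part in the values was not tested. The counts below stand against 10.0% called higher and 8.63% called lower among all tested genes. Of 20 myelin genes, 7 rose and none fell, with a median log2 fold change of 0.65 and sums of 5266 to 17050 CPM in normal nerve and 14342 to 25293 CPM in tumours. Leaving out tumour replicate 2 or 4 left 4 called, and leaving out normal replicate 1 made it 12. Gjc3, a gap junction protein of myelinating glia, rose 1.69-fold (edgeR adjusted p = 0.00559) and Gldn, which clusters channels at nodes, rose 2.98-fold (edgeR adjusted p = 0.0066). Mbp, the myelin basic protein, was not called. Of 14 Schwann lineage genes, 5 rose, among them the adhesion molecules Cdh19, 1.97-fold (edgeR adjusted p = 0.00638), and Cadm4, 2.19-fold (edgeR adjusted p = 0.00789), and the precursor factor Foxd3, 2.31-fold (edgeR adjusted p = 0.00758). None fell, the median log2 fold change was 0.44, the sums ran from 3121 to 4272 CPM and from 4438 to 5497 CPM, and 8 were called without normal replicate 6. Of 12 satellite glia and astrocyte genes 3 rose, led by the lipid carrier Apoe, 1.63-fold (edgeR adjusted p = 0.00516), with Entpd2 2.63-fold (edgeR adjusted p = 0.0121) and Fbln5 1.43-fold (edgeR adjusted p = 0.0208), while the median of the list was -0.21. Calls in this list ran from 2 higher without tumour replicate 4 to 5 without normal replicate 6, where 1 was lower. Over all genes, calls higher ran from 1092 without tumour replicate 4 to 2544 without normal replicate 6, against 1730 with all libraries.

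Of 14 fibroblast genes 6 rose and none fell, with a median log2 fold change of 0.83, against 10.0% called higher among all tested genes. They included Col3a1, a fibrillar collagen, 4.30-fold (edgeR adjusted p = 0.00952), Col1a2, 2.70-fold (edgeR adjusted p = 0.0153), Lum, 4.08-fold (edgeR adjusted p = 0.0223), and Col1a1, 3.85-fold (edgeR adjusted p = 0.0271). Fibroblast sums ran from 246 to 1371 CPM in normal nerve and from 1560 to 3628 CPM in tumours. The call count was 3 without normal replicate 5 or without tumour replicate 2, 4 or 6. Of 15 macrophage genes 5 rose and 1 fell, among them Aif1, the marker Iba1, 3.36-fold (edgeR adjusted p = 0.0177), Cd14, a co-receptor for lipopolysaccharide, 1.77-fold (edgeR adjusted p = 0.0214), the chemokine receptor Cx3cr1, 2.80-fold (edgeR adjusted p = 0.0371), and the antibody receptor Fcgr1, 2.61-fold (edgeR adjusted p = 0.0455). The median log2 fold change of the macrophage genes was 0.90. Macrophage calls ran from 1 higher without tumour replicate 4 to 11 without normal replicate 6. Over all genes, those same fits called 1092 and 2544 higher, against 1730 with all libraries. Of 15 sensory neuron genes, which were abundant in every library, Snap25, a synaptic vesicle fusion protein, fell to 0.722 of its normal level (edgeR adjusted p = 0.00986) and none rose, with a median log2 fold change of -0.19. Without normal replicate 6, 8 of them were called lower, in a fit that called 2487 genes lower over all genes, against 1488 with all libraries. Cdh5, the endothelial cadherin, fell to 0.619 (edgeR adjusted p = 0.0278), the single call among 13 tested endothelial genes (median log2 fold change -0.22), and it was lost in 6 of the fits that left out 1 library. In the macrophage, sensory neuron and endothelial lists, the share called lower was below the 8.63% among all tested genes. No keratinocyte, skeletal muscle or CNS gene was called, but only 2 of 10, 5 of 12 and 9 of 12 of them were tested. The nearest were Trp63 (edgeR adjusted p = 0.339), Myh4 (edgeR adjusted p = 0.431) and Slc17a7 (edgeR adjusted p = 0.054). Without normal replicate 6, the neuronal glutamate transporter Slc17a7 was called lower (log2 fold change -0.71, edgeR adjusted p = 0.000652) and Gad1 higher (1.73, edgeR adjusted p = 0.00455).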

How the data were processed

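Polyadenylated RNA of 12 trigeminal nerve samples was sequenced. Per the labels' protocols, total RNA came from a column kit, and both a stranded mRNA kit and a TruSeq kit are named for the libraries. The tools named, per the submitters' processing notes and without role or order, are STAR 2.4.2a, Salmon 0.60, FastQC and DESeq2, with build mm10. Neither annotation nor strand setting is given in the sources used here. In the single table that the authors deposited, values are estimated counts for each gene symbol, without normalization. These expected counts were rounded to whole numbers. Columns were matched to samples by title, and 0 per-sample columns were left out.

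Genes were filtered with filterByExpr and tested in R 4.3.3 with edgeR 4.0.16 (quasi-likelihood F test, TMM, robust, two-sided), with Benjamini-Hochberg adjustment over all 17236 genes tested. Every adjusted p comes from this fit unless another tool is named. A prior count of 2 was used for log2 CPM. Coordinates and lengths are from GENCODE vM21 (GRCm38, the assembly of mm10), 1-based, and coding identity from Biopython 1.88, with BLAST 2.17.0 for near-identical transcripts. The test was checked on simulated data.

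The members, the 17 lists, tests and alternatives were chosen with earlier results of these data known. The rule named the 7 genes, Nf1, all other family members, protein-coding genes lying at least in part within 250 kb of Pmp2, the 5 genes most like Pmp2, up to 4 called genes of each list by p-value (else the 1 with the smallest p), and defining markers. Called list members outside this rule are counted and not named, and some genes it gives are not reported here. The alternatives were scaling by RLE or by upper quartile, leaving out the filter, requiring CPM above 1 in at least 6 libraries, DESeq2 1.42.0, limma-voom (limma 3.58.1) with quality weights, covariates for sex-linked transcripts and for sensory neuron and muscle scores, and leaving out each library. Leaving out 3 libraries together was chosen after seeing the data. With 6 samples a group, depth of 14159973 to 19989325 counts limits genes of few counts most.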

Additional observations from a re-analysis of the deposited data

Results flagged for a closer look

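Of 48 groups of 6 values, 14 of the family and 34 of list sums, 16 held a library far from the other 5 by Dixon's test. Chance flags about 1 in 20 groups. Most of the distant values came from normal nerve replicate 6 and plexiform neurofibroma replicate 1.

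In the family, Fabp4 stood apart in plexiform neurofibroma replicate 1 (358 CPM, next 4.18 CPM) and in normal nerve replicate 3 (4.61 CPM, next 0.626 CPM). Crabp2 stood apart in normal nerve replicate 6 (17.8 CPM, next 3.34 CPM), as did Fabp5 (139 CPM, next 98.2 CPM). Fabp7 was distant downwards in normal nerve replicate 2 (65.0 CPM, next 167 CPM). Pmp2, Fabp3 and Crabp1 had no library flagged by this test in either group. Pmp2 was still low in plexiform neurofibroma replicate 5 (46.7 CPM, next 173 CPM), and Fabp3 high in normal nerve replicate 2 (76.2 CPM, next 54.6 CPM).

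Among list sums, normal nerve replicate 6 was high in satellite glia and astrocyte markers (5477 CPM, next 3160 CPM) and in oligodendrocyte and CNS neuron markers (1531 CPM, next 502 CPM). It was also high in keratinocyte markers (13.3 CPM) and in genes of retinoid synthesis and breakdown (366 CPM, next 119 CPM). Normal nerve replicate 2 was low in fibroblast markers (246 CPM, next 1012 CPM), and normal nerve replicate 3 was high in skeletal muscle markers (509 CPM, next 45.1 CPM). Plexiform neurofibroma replicate 1 was high in adipocyte markers (1027 CPM, next 41.9 CPM), skeletal muscle markers (2056 CPM, next 7.53 CPM), CNS markers (654 CPM, next 234 CPM) and genes of fatty acid uptake (993 CPM, next 688 CPM). Keratinocyte markers were high in plexiform neurofibroma replicate 3 (11.2 CPM, next 6.40 CPM).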

How the results depend on the processing

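The log2 fold changes of Fabp3, Fabp5, Fabp7 and Crabp1 each kept their direction and side of the threshold in all alternatives run. Without 1 library they ran from -0.28 to -0.07, from 0.08 to 0.30, from 0.19 to 0.42 and from 1.20 to 1.45. That of Pmp2, which was chosen for its rise, ran from 4.47 to 4.93. Crabp2, not called in any, changed sign with limma-voom (0.92), with the sensory neuron score as a covariate (0.15), without the 3 libraries that stood apart (0.77) and without normal nerve replicate 6 (1.13), with a range of -0.50 to 1.13 without 1 library; the last shows that this library sets the sign. For Fabp4, which was not tested, the difference of mean log2 CPM was 1.44, -0.14 without plexiform neurofibroma replicate 1 and -0.32 without the 3 libraries; the stricter filter, the other tools and the covariates gave no value for it, because it was below the filter, and the fit with no filter gave a log2 fold change of 5.84.

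Over all genes, 3218 were called (1730 higher, 1488 lower). limma-voom called 5565 (2864 higher, 2701 lower), and with no filter 902 were lower; the cause was not tested. Without 1 library the count ran from 1893 (tumour replicate 4) to 5031 (normal replicate 6), with 1092 to 2544 higher and 801 to 2487 lower. Of the list counts under alternatives, 87 differed from the main count by over 1.5 times and 661 did not. The ratio of Pmp2 to Pmp22 ran from 9.47 to 14.02 times higher in tumours without 1 library, and that to S100b from 12.4 to 17.5. No paired analysis was possible because the labels give no replicate numbers shared by the 2 groups. Depth limits Crabp1, Crabp2 and Fabp4 most, which had counts of 109 or fewer in most libraries.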

Other observations

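Within each group of 6 libraries, log2 CPM of Pmp2 was compared with that of its 6 paralogs and of Schwann lineage genes that included Mbp, S100b and Sox10, 20 relations in all. By exact permutation over the 720 pairings, 0 of 20 passed Benjamini-Hochberg adjustment, and 2 had an unadjusted Pearson p under 0.05. With 720 pairings a single Spearman relation, even a perfect one, could not pass adjustment over 20 relations. For rho, the lack of a pass therefore does not show that a relation is absent. The smallest belonged to Fabp3 in normal nerve, with Pearson's r = -0.96 (exact permutation p = 0.00972, adjusted p = 0.194) and Spearman's rho = -0.89 (exact permutation p = 0.0333, adjusted p = 0.646). Without the 2 libraries farthest from the median, r was -0.60, so the relation rests on those libraries. The second was Mbp in normal nerve, with r = 0.80 (exact permutation p = 0.0472, adjusted p = 0.333) and rho = 0.60 (exact permutation p = 0.242, adjusted p = 0.646), and r was 0.16 without 2 libraries.

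Pmp2 and Crabp1, both without overlap between groups, had different orders among tumours: replicate 4 was the highest of the 6 in Pmp2 (253 CPM) and replicate 5 in Crabp1 (6.34 CPM). Their log2 CPM within tumours had r = -0.56 (exact permutation p = 0.29, adjusted p = 0.538) and rho = -0.37 (exact permutation p = 0.497, adjusted p = 0.71), and r was 0.50 without 2 libraries.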
